A study of Mus musculus with 34 samples.

Results

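The unfolded protein response was followed through 10 of its genes in 34 RNA-seq libraries of mouse cumulus cells (CC), the somatic cells that surround the oocyte in the antral follicle. The genes were Serp1, Hspa5, Hsp90b1, Calr, Pdia4, Dnajb9, Herpud1, Xbp1, Atf4 and Ddit3. They were matched by symbol to 10 of the 25965 entries of the count table, which hold 25899 distinct symbols. Serp1 was included because it was higher with leptin and with 4 weeks of high-fat diet in these same libraries, so its values in those contrasts are given as a description without a test. The other 9 were included as known genes of the pathway, and they too were chosen with earlier results of these data known.

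All libraries came from superovulated C57BL/6J females that entered the protocols at 8 weeks of age, with about 50 CC in each and 1 library per mouse. Nothing in the labels says whether libraries of a group were handled together, so p-values measure the spread between these libraries. In the leptin protocol, mice were injected intraperitoneally every morning and evening for 16 days with saline (16 C, n = 3) or with leptin at 100 µg/day in total (16 L, n = 5). In the diet-induced obesity (DIO) protocol, mice received chow diet (CD, 11% of energy from fat) or high-fat diet (HFD, 58%) for 4 weeks (4-week CD, n = 5, and 4-week HFD, n = 5) or 16 weeks (16-week CD, n = 6, and 16-week HFD, n = 7). A further group of 3 libraries is labelled as low weight gainers after 16 weeks of HFD, so that group was defined by the weight response of the mice and not by an assigned treatment. No other allele or agent is labelled for any group.

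The unfolded protein response is the programme by which a cell adjusts the folding capacity of its endoplasmic reticulum (ER) to the load of secretory and membrane proteins. It is started by the ER membrane sensors IRE1, PERK and ATF6. IRE1 splices Xbp1 mRNA, PERK slows translation while favouring that of Atf4, and ATF6 is cleaved in the Golgi to a transcription factor. The targets include ER chaperones, disulphide isomerases, components that remove misfolded proteins, and, on prolonged stress, the transcription factor Ddit3 (CHOP). CC secrete a hyaluronan-rich matrix before ovulation, and ER stress in the cumulus-oocyte complex is a recognised subject in studies of diet and fertility.

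Promoter sequences of the members are shown because some of them carry the letters of the ER stress response element (ERSE), through which ATF6 and XBP1 are known to act. The windows ran from 250 bases before to 50 bases after the gene start and came from RefSeq with the GRCm38.p6 assembly, and 10 of 10 members had one. The full ERSE was searched on both strands as CCAAT, any 9 bases and CCACG. It was found in 3 members, Hspa5, Hsp90b1 (2 matches) and Calr, against 0.137% of 27025 genes with a window of the same length. The related ERSE-II, searched as ATTGG, any 1 base and CCACG, was found in Herpud1, against 0.0444% of genes. The matches are in capitals below with up to 40 flanking bases within the window, read 5′ to 3′ on the strand of the gene, and a match on the opposite strand appears as its reverse complement.
Hspa5, chr2:34771985-34772083, plus strand: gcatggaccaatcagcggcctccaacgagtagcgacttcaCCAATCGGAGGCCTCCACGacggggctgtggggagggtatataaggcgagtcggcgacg
Hsp90b1, chr10:86705493-86705694, minus strand: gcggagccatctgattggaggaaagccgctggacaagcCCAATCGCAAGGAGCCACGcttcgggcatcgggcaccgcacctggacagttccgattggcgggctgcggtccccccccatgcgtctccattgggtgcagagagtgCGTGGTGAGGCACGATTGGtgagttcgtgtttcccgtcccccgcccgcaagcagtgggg
Calr, chr8:84847035-84847133, minus strand: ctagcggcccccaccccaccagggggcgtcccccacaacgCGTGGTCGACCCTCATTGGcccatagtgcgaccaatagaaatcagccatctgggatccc
Herpud1, chr8:94386337-94386427, plus strand: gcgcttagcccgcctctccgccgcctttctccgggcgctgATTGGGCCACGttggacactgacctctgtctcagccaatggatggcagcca

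The windows of Serp1 and Dnajb9 are shown whole, because Dnajb9 was the member whose levels were most like those of Serp1. Neither window held either element. Both held the last 5 letters of the ERSE, CCACG, in capitals, which overlap the longer elements. On either strand CCACG occurred in 8 of the 10 members and in 35.5% of all genes.
Serp1, chr3:58525835-58526134, minus strand: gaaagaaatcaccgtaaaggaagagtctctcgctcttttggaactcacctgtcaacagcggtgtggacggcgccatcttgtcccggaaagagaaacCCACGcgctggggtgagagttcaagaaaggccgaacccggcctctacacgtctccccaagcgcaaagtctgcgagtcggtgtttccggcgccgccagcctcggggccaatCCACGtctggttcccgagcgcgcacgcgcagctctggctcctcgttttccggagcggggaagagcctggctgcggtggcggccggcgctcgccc
Dnajb9, chr12:44210019-44210318, minus strand: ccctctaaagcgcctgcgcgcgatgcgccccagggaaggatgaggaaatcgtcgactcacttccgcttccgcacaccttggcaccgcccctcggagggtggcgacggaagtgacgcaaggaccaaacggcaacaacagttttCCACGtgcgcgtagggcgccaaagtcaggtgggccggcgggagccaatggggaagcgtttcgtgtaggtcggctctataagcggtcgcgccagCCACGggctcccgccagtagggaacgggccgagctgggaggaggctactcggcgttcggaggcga
The first CCACG of the Serp1 window starts 154 bases before the gene start and the other 44 bases before it. In the Dnajb9 window they start 108 and 15 bases before it. The cores TGACGTGG, TGATGCAAT and TGACGTCA, searched on both strands, were in 0 of the 10 members and in 0.714%, 0.222% and 2.03% of all genes, respectively.

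Library totals ranged from 1104611 to 13207018 counts, and every member had at least 16 counts in every library. Of 12 cumulus and granulosa markers, 7 were counted in every one of the 34 libraries, with summed levels of 634 to 2893 RPM (counts scaled to the library total). Pgr was at 0 in every library of 16 C, 4-week CD and low weight gainers, and Amh in every library of the last. Oocyte markers summed to at most 20.1 RPM except in 4-week HFD replicate 5, at 379.8 RPM. The libraries that stood apart by markers of other cells were mainly those of 16 L. In 16 L replicate 18, the 8 oviduct epithelium markers summed to 29999 RPM, the theca and stroma markers to 1478 RPM and the 3 red blood cell markers to 9805 RPM. Outside 16 L these sums were at most 406, 28.4 and 134 RPM. Replicate 18 also had the lowest cumulus and granulosa sum of the 34, so whether it holds mainly CC is in doubt, and leptin values that rest on it are given with and without it. The oviduct markers also reached 1457 and 2299 RPM in replicates 20 and 21, the red blood cell markers 2549 RPM in replicate 21, and the 10 macrophage and neutrophil markers 1460 and 1677 RPM in replicates 20 and 23, against at most 590.4 RPM outside 16 L. The 50 most abundant genes took 30.7 to 34.6% of counts in 16 C and 13.4 to 19.8% in 16 L, which moves every other gene in RPM, so fold changes were fitted with the TMM scaling of edgeR, and the placement of libraries is given in RPM and, where stated, as CPM on the TMM scale. The 50 most abundant genes also took 14.9 and 15.5% of counts in 16-week CD replicates 1 and 2, against 24.3 to 30.4% in the other 4 of that group. In libraries of pooled cells, fewer cells of one type and less RNA per cell cannot be told apart.

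Compared between genes per kb of exon within the table's gene span, the members covered a wide range in CC. Pdia4, a disulphide isomerase of the ER lumen, and Hsp90b1 (GRP94), an ER chaperone of the HSP90 family, had the highest medians over the 34 libraries, 457 and 424 RPM per kb. The order of these 2 was not stable, since Pdia4 was above Hsp90b1 in 18 of 34 libraries. Hspa5 (BiP), the HSP70 chaperone that also holds the sensors inactive, followed at 240.1 RPM per kb, and was below Hsp90b1 in 33 of 34 libraries. Xbp1 (102 RPM per kb), Serp1 (94.4) and Calr (79.0) lay close together, and Xbp1 was above Serp1 in 17 of 34 libraries. Herpud1 (38.7), Atf4 (33.6), Dnajb9 (21.3) and Ddit3 (14.8) were the lowest. Herpud1 was above Atf4 in 18 of 34 libraries. Over all libraries the spread was largest for Herpud1, whose highest library was 17.4 times its lowest in RPM, and smallest for Ddit3, at 3.86 times. The highest Herpud1 library, at 435 RPM, was 16 L replicate 18, whose cell content is in doubt. Without that library Herpud1 ran from 24.9 to 227 RPM, and the spread was largest for Pdia4, at 11.4 times. Together the 10 genes took 0.238 to 0.775% of the counts of a library.

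**Figure D1:**
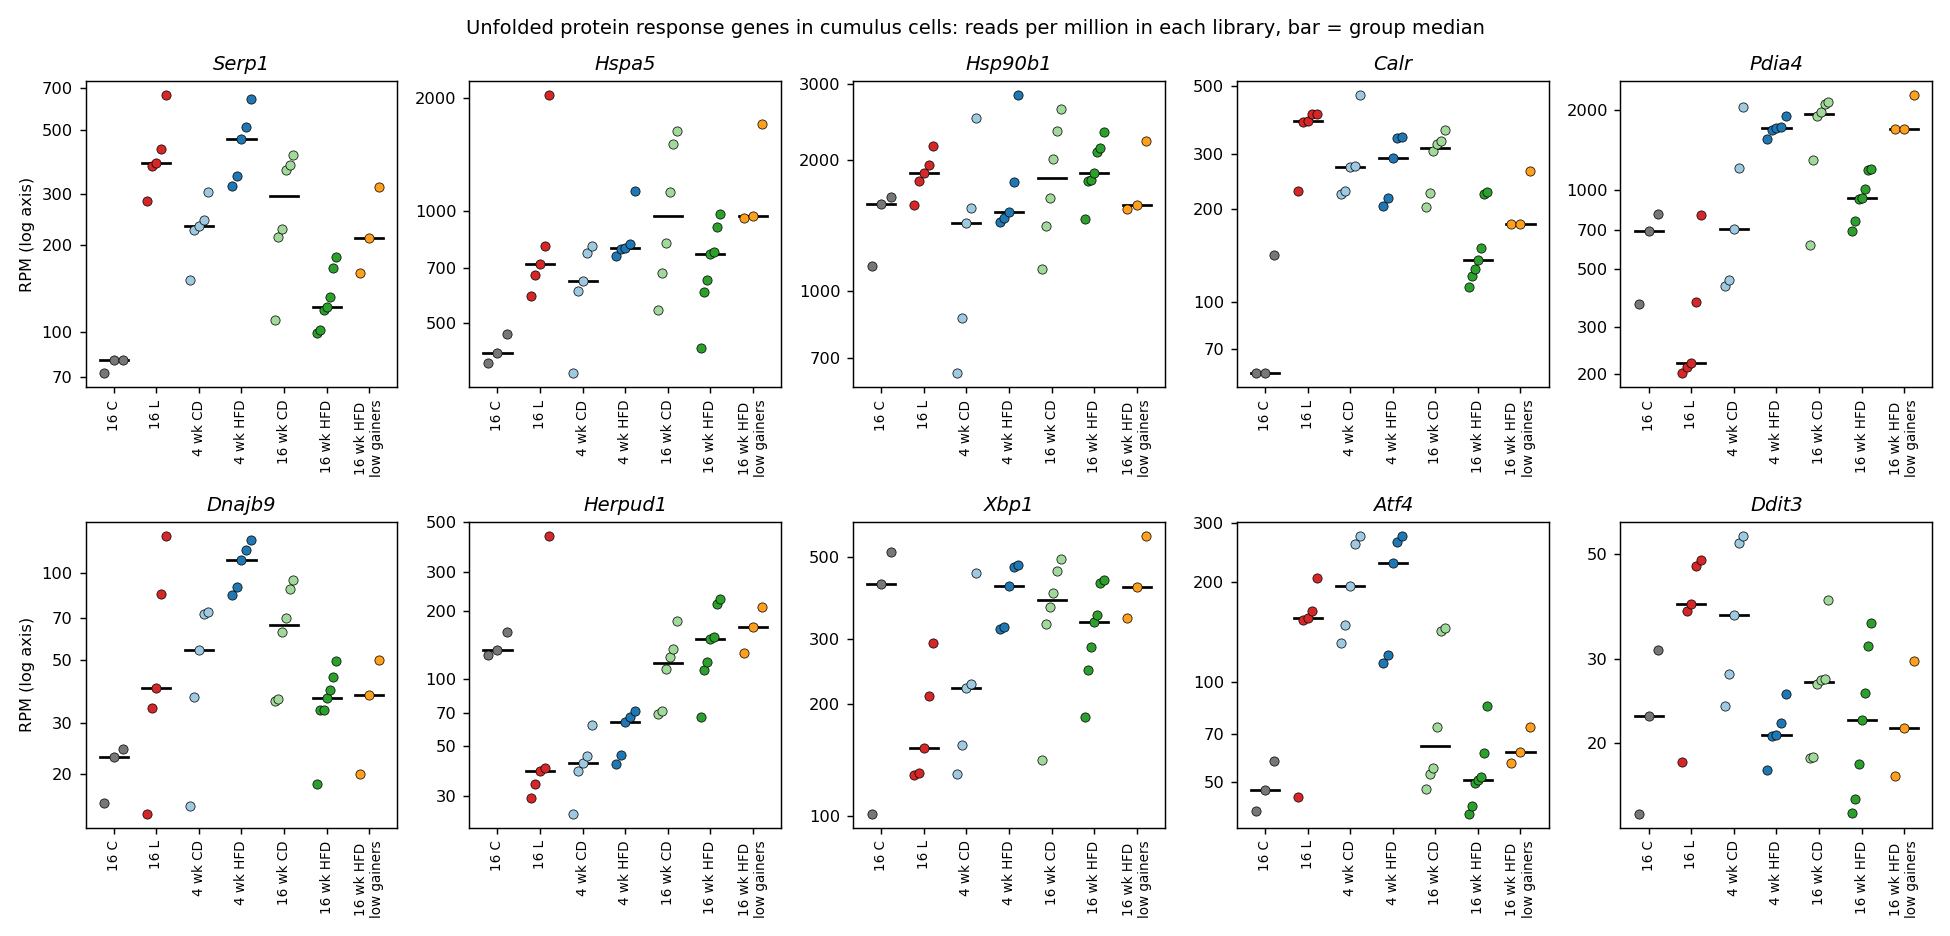
Each panel is 1 gene, each point 1 library in RPM on a log axis, grouped along the horizontal axis, and each bar a group median. Serp1 lay between 72.0 and 79.9 RPM in the 3 libraries of 16 C and between 283 and 663 RPM in the 5 of 16 L, and Herpud1 of 16 L shows 1 library at 435 RPM above 4 between 29.4 and 39.8 RPM.

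Serp1 (RAMP4) encodes a small membrane protein that binds the SEC61 translocon and protects new membrane proteins during ER stress. Its table entry spans chr3:58521969-58525873 on the minus strand of GRCm38. By the GENCODE annotation it shares 53 exonic bases with Eif2a on the opposite strand. Since the strand setting of the counting was not given in the sources used here, reads from those bases cannot be assigned. In 16 C, Serp1 was at 79.9, 72.0 and 79.8 RPM. In 16 L, replicates 18, 19, 20, 21 and 23 were at 663, 431, 376, 384 and 283 RPM. All 5 leptin libraries were above all 3 saline libraries, as were 26.8% of the 11723 genes tested (4.5% lay below, 31.3% in either direction), with a ratio of medians of 4.81. On the TMM scale the groups did not overlap either, as for 23.2% of genes (11.8% higher, 11.4% lower), and the ratio of medians was 2.56. The fitted log2 fold change was 1.77, and 1.27 without 16 L replicate 18.

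In 4-week CD, Serp1 was at 306, 233, 225, 152 and 245 RPM in replicates 1, 2, 7, 8 and 11. In 4-week HFD it was at 514, 347, 320.3, 465 and 643 RPM in replicates 3, 4, 5, 13 and 14. The groups did not overlap in RPM, as for 6.86% of 11727 genes tested (1.93% higher, 4.94% lower). On the TMM scale they did, with 4 of 5 HFD libraries above all CD libraries and HFD replicate 5 below CD replicate 1. Serp1 had a fitted log2 fold change of 1.09. Serp1 thus had the same sign in both protocols, which is the count by which it was chosen. The saline controls had the lowest Serp1 median of the 7 groups on both scales. The ratio of the 16 C median to that of 4-week CD was 0.343 in RPM and 0.602 on the TMM scale. The 3 saline libraries were below every 4-week CD library in RPM, while on the TMM scale 4-week CD replicate 8 was lower than all 3. In RPM the saline libraries were also below every 4-week CD library for Calr and Atf4, with ratios of medians of 0.216 and 0.245. They were above every one for Herpud1, at 3.19, while the remaining members overlapped. On the TMM scale this held for Atf4 and Herpud1 but not for Calr. The share of all genes that did not overlap was not counted for these 2 control groups. These placements are therefore not read as particular to the members. The 50 most abundant genes took 30.7 to 34.6% of counts in 16 C and 13.7 to 18.5% in 4-week CD, and the part of this was not tested. Injection, saline and age separate these control groups, and their parts cannot be told apart.

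After 16 weeks the median of Serp1 was lower in HFD than in CD. The 16-week CD libraries ran from 110.5 to 411 RPM with a median of 296, and the 16-week HFD libraries from 99.05 to 182 RPM with a median of 122. The groups overlapped, with 2 HFD libraries below the lowest CD library and 0 above the highest. Of 10861 genes tested, 0.875% did not overlap (0.157% higher, 0.718% lower). These libraries were not used to choose Serp1, and the log2 fold change was -0.70 (SE 0.248, 95% interval -1.22 to -0.18), which did not pass (adjusted p = 0.104, edgeR quasi-likelihood test with Benjamini-Hochberg adjustment over 10861 genes). Without 16-week CD replicate 9, the lowest CD library, the log2 fold change was -0.83 (adjusted p = 0.0239), and 20.5% of all genes were called in that fit against 0.0276% with all libraries. It was the 1 call in 13 fits that left out 1 library, with values of -0.86 to -0.55 and adjusted p up to 0.263. Under 7 other settings the values were -1.11 to -0.57, with 1 called and adjusted p up to 0.510. The low weight gainers were at 160, 211 and 318 RPM, with a log2 fold change of 0.60 over 16-week HFD (SE 0.250, adjusted p = 0.0930). Without 16-week HFD replicate 10 that value was 0.77 (adjusted p = 0.0209), with 21.5% of all genes called in that fit. It was the 1 call in 10 fits that left out 1 library, with values of 0.38 to 0.81 and adjusted p up to 0.418. The fitted difference of the diet effects at 16 and at 4 weeks was -1.69 for Serp1, a description since it contains the 4-week contrast.

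**Figure D2:**
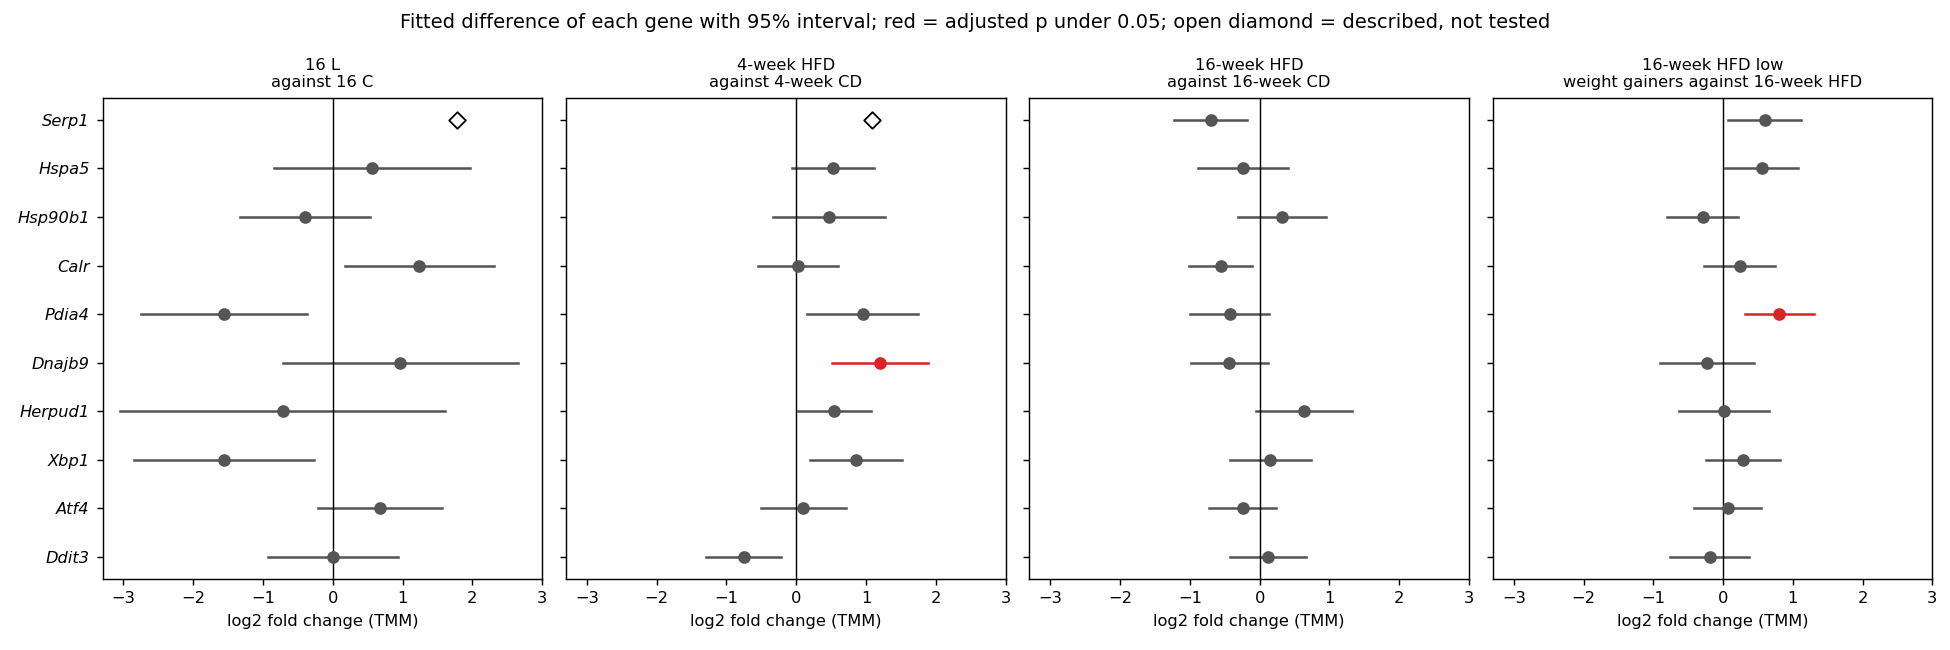
Points are log2 fold changes fitted by edgeR on the TMM scale, lines their 95% intervals, with 1 panel per comparison and 1 row per gene, red where the adjusted p was under 0.05 and open diamonds where Serp1 was described without a test. Of the tested values, Dnajb9 in 4-week HFD at 1.20 and Pdia4 in low weight gainers at 0.81 were called.

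Leptin treatment was compared with saline over 16 days to see whether more circulating leptin, without obesity, altered the folding genes of CC. The chaperone Calr had the largest positive value of the 9 tested members, while Pdia4 and Xbp1 had the largest negative ones. None of the 9 passed (0 of 9 called, edgeR), in a comparison where 8.56% of genes were called (4.06% higher, 4.5% lower). At an unadjusted p under 0.05 were 3 of 9, beside 32.4% of all genes. DESeq2 called 2 of 9, beside 23.7% of all genes, and limma-voom with sample weights 6 of 9, beside 64.4%, so these shares of the members were close to those of all genes. Over all genes the log2 fold changes had a median of 0.27 with TMM and 1.08 when libraries were scaled by their totals alone, so 0 is not the middle of either set of values. Relative to the TMM median, Calr was at 0.97, Dnajb9 at 0.70, Atf4 at 0.40, Hspa5 at 0.29, Ddit3 at -0.27, Hsp90b1 at -0.67, Herpud1 at -0.99, Xbp1 at -1.83 and Pdia4 at -1.84.

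Among the chaperones, Calr (calreticulin, chr8:84841850-84846934), the calcium-binding lectin chaperone, was at 58.7, 142 and 58.6 RPM in 16 C and at 384, 228, 382, 406 and 405.5 RPM in 16 L replicates 18, 19, 20, 21 and 23. The groups did not overlap in RPM, a pattern of 26.8% of genes as given above, but did on the TMM scale, where 4 of 5 leptin libraries were above all saline libraries and replicate 19 was below saline replicate 2. The log2 fold change was 1.24 (SE 0.480, adjusted p = 0.113, edgeR). Hspa5 (chr2:34771970-34776531) was at 468, 390.1 and 416 RPM in 16 C. In 16 L it was at 2042 RPM in replicate 18 and at 720.1, 673, 801 and 592 RPM in the others. Its groups did not overlap in RPM either, but on the TMM scale 1 leptin library was above and 3 below all saline libraries, and the fitted log2 fold change was 0.56 (SE 0.631, adjusted p = 0.558) and turned to -0.27 without replicate 18. Hsp90b1 (chr10:86690209-86705509) overlapped, at 1142 to 1640 RPM in 16 C and 1572 to 2159 RPM in 16 L, with 4 of 5 leptin libraries above all saline libraries in RPM and 4 of 5 below them on the TMM scale. It had a log2 fold change of -0.40 (SE 0.418, adjusted p = 0.531) that was 0.37 under library totals alone.

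Pdia4 (chr6:47796142-47813512) was at 808, 367 and 697 RPM in 16 C. In 16 L it was at 799 RPM in replicate 19 and between 201 and 375 RPM in the other 4 libraries. In RPM 3 of those 4 were below every saline library, and on the TMM scale all 4. Pdia4 had a log2 fold change of -1.56 (SE 0.532, adjusted p = 0.0859, edgeR), with -2.06 (adjusted p = 0.0250) without replicate 19. In that fit 14.4% of all genes were called. Over the 8 fits that left out 1 library Pdia4 ran from -2.06 to -1.39, with 2 called and adjusted p up to 0.263. Xbp1 (chr11:5520659-5525893), the transcription factor activated through splicing by IRE1, was at 515, 101 and 423 RPM in 16 C and at 293, 210.1, 129, 130.4 and 152 RPM in 16 L. In RPM saline replicate 2 was the lowest of all 8 libraries and the other saline libraries the highest. On the TMM scale 16 L replicates 20, 21 and 23 were below saline replicate 2, and the groups overlapped on both scales. Xbp1 had a log2 fold change of -1.55 (SE 0.577, adjusted p = 0.104). The table counts whole genes, so spliced Xbp1 mRNA cannot be separated from unspliced.

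The value of Herpud1 turned most on a single library. Herpud1 (chr8:94386438-94395377) encodes an ER membrane protein that helps to send misfolded proteins for degradation and is among the most sensitive transcripts of the response. It was at 161, 134 and 128 RPM in 16 C. In 16 L it was at 435 RPM in replicate 18 and at 38.7, 29.4, 39.8 and 33.9 RPM in replicates 19, 20, 21 and 23. Thus 4 of 5 leptin libraries lay below all saline libraries and 1 above them. Those 4 lay within the 24.9 to 62.4 RPM of 4-week CD, and all 3 saline libraries lay above that range. The log2 fold change was -0.72 (SE 1.04, adjusted p = 0.660, edgeR) with all 8 libraries and -2.98 (adjusted p = 6.14e-05) without replicate 18.

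Among the remaining transcription factors, Atf4 (chr15:80255184-80257540), which is translated when PERK is active, was at 47.5, 58.1 and 41.1 RPM in 16 C. In 16 L it was at 45.2 RPM in replicate 18 and at 154, 156, 164 and 205 RPM in the others. On the TMM scale replicate 18 was below all saline libraries and the other 4 above them. Atf4 had a log2 fold change of 0.68 (SE 0.397, adjusted p = 0.262). Ddit3 (chr10:127290774-127296288), a proapoptotic target of ATF4 whose exons overlap 68 bases of Mars exons, had a log2 fold change of 0.0053 (SE 0.417, adjusted p = 0.994), with 95% interval -0.93 to 0.94, and its sign changed under 3 of 6 other settings. Dnajb9 (ERdj4, chr12:44205897-44210068), the cochaperone that restrains IRE1, ran from 14.5 to 135 RPM in 16 L against 15.7 to 24.4 RPM in 16 C, with a log2 fold change of 0.97 (SE 0.753, adjusted p = 0.391), and 0.12 without replicate 18.

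Without 16 L replicate 18, 4 of the 9 members were called and 41.8% of all genes tested were called. Pdia4 fell by 1.59, Herpud1 by 2.98 and Xbp1 by 2.07 on the log2 scale, with adjusted p = 0.0267, 6.14e-05 and 0.00499 in edgeR. Atf4 rose by 0.77 (adjusted p = 0.0382). Calr was at 0.97 (adjusted p = 0.0886), Hsp90b1 at -0.61 (adjusted p = 0.0856) and Ddit3 at -0.22 (adjusted p = 0.655). The part that cells of another type have in these values was not tested. In the 4 remaining 16 L libraries the oviduct epithelium markers summed to 12.9, 1457, 2299 and 396 RPM in replicates 19, 20, 21 and 23, against 19.6 to 69.4 RPM in 16 C, where Foxj1, Wfdc2 and Muc16 were at 0. The 10 macrophage and neutrophil markers summed to 82.4 to 1677 RPM in 16 L and 73.2 to 470.3 RPM in 16 C, where none of them was at 0 in all libraries. The 3 red blood cell markers summed to 3.74, 44.7, 2549 and 37.5 RPM in the same 4 libraries and to 1.06 to 19.3 RPM in 16 C. Replicate 19 had a mitochondrial share of 4.71%, against 0.335 to 0.628% in 16 C and 0.435 to 0.654% in the other 16 L libraries, and the part of that share was not tested.

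**Figure D3:**
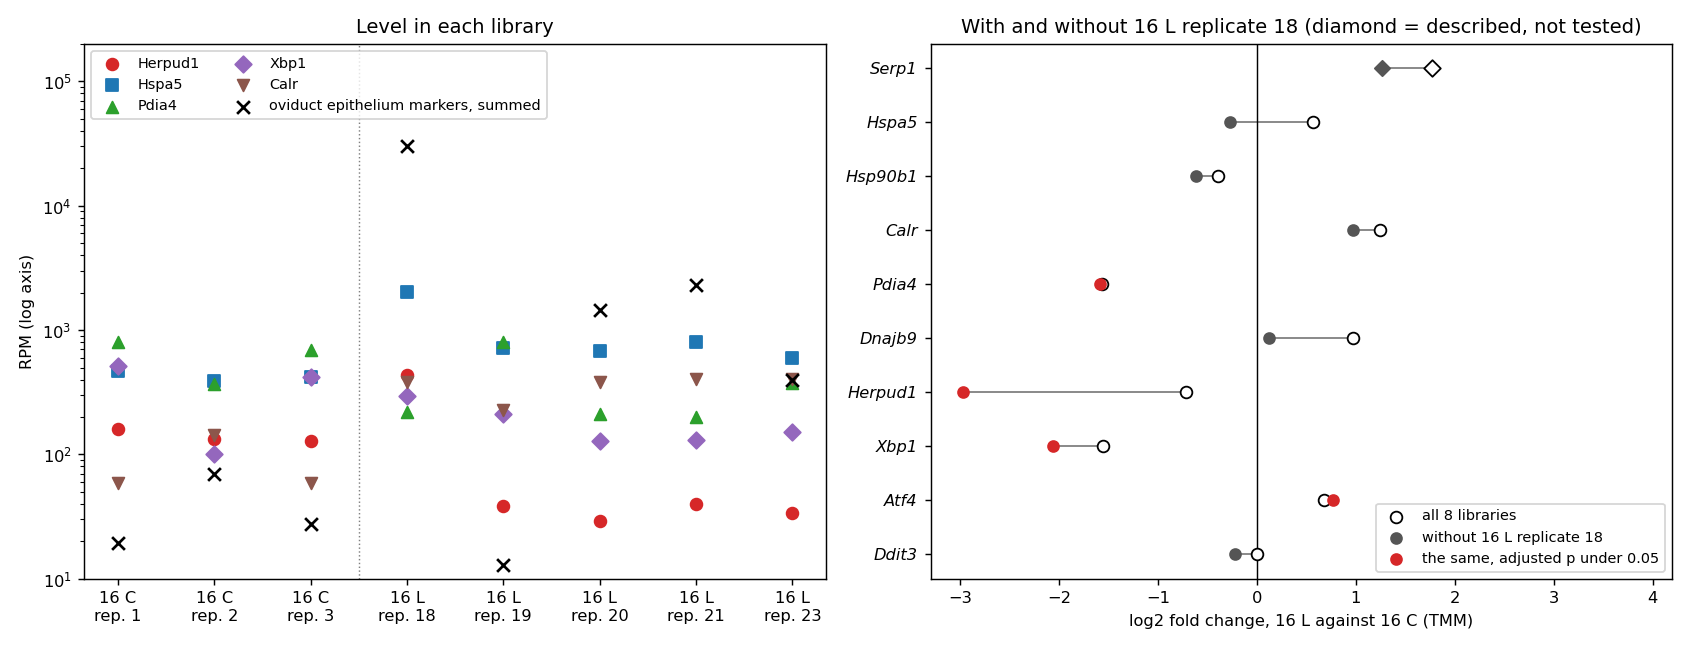
On the left are 5 genes and the sum of 8 oviduct epithelium markers in each of the 8 libraries of the leptin protocol, in RPM on a log axis, and on the right is the log2 fold change of each gene with all 8 libraries (open) and without 16 L replicate 18 (filled, red where called). Herpud1 moved from -0.72 to -2.98 and Hspa5 from 0.56 to -0.27.

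The 4-week diets were compared to ask what early high-fat feeding did to the same genes. Dnajb9 rose in 4-week HFD, 2.06 times by medians. Of the 9 tested members 1 was called, in the higher direction, where 4.26% of genes were called (1.19% higher, 3.06% lower). Of the 9, 8 had a log2 fold change above 0, beside 49.3% of all genes. The median of the 9 was 0.53, against -0.0099 for all genes, and under library totals alone Calr and Atf4 turned below 0. Ddit3 was the only one of the 9 below 0 with TMM. An unadjusted p under 0.05 (edgeR) was reached by 5 of 9, beside 24.3% of all genes.

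Dnajb9 was at 54.2, 15.4, 71.8, 37.1 and 73.4 RPM in 4-week CD replicates 1, 2, 7, 8 and 11. It was at 120.8, 84.1, 89.5, 111.5 and 130.3 RPM in 4-week HFD replicates 3, 4, 5, 13 and 14. All 5 HFD libraries were above all 5 CD libraries on both scales, a pattern of 1.93% of genes in RPM and 2.87% on the TMM scale. The log2 fold change was 1.20 (SE 0.324, adjusted p = 0.0469, edgeR quasi-likelihood test). The call was close to the threshold. It was lost in 9 of 10 fits that left out 1 library, with adjusted p up to 0.142, while the log2 fold change stayed between 0.99 and 1.36.

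Pdia4 was spread over a wider range in 4-week CD than in 4-week HFD. In CD it was at 708, 431, 1204, 452 and 2061 RPM in replicates 1, 2, 7, 8 and 11, and in HFD it lay between 1552 and 1899 RPM in all 5 libraries. CD replicate 11 was above every HFD library and the other 4 below. The log2 fold change was 0.95 (SE 0.375, adjusted p = 0.138), and 1.41 (adjusted p = 0.0116) without CD replicate 11. Xbp1 had a like pattern, at 227, 156, 222, 129.98 and 452 RPM in CD and 319 to 476 RPM in HFD, with a log2 fold change of 0.86 (SE 0.311, adjusted p = 0.112) and 1.21 (adjusted p = 0.0106) without replicate 11. In that fit 4 of 9 members and 14.4% of all genes were called. Pdia4 and Xbp1 were each called in 1 of 10 fits that left out 1 library. Their lowest values were 0.76 and 0.70, both without CD replicate 8, and adjusted p reached 0.282 and 0.243.

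The other chaperones and Herpud1 gave smaller values at 4 weeks. Hspa5 had 2 of 5 HFD libraries above all CD libraries in RPM and 5 of 5 on the TMM scale. Its log2 fold change was 0.53 (SE 0.278, adjusted p = 0.250), with Herpud1 at 0.55 (SE 0.245, adjusted p = 0.185) and Hsp90b1 at 0.47 (SE 0.376). HFD replicate 14 was the highest library of its group for both Hspa5, at 1129 RPM, and Hsp90b1, at 2827 RPM. Calr, at 0.024, had a 95% interval of -0.55 to 0.59. For Ddit3, the CD libraries lay between 23.9 and 54.6 RPM and the HFD libraries between 17.5 and 25.3 RPM, and 4 of 5 HFD libraries were below every CD library. On the TMM scale all 5 were, as for 3.72% of genes (6.59% in either direction). Its log2 fold change was -0.75 (SE 0.254, adjusted p = 0.0948), and -0.85 (adjusted p = 0.0373) without CD replicate 11. That was the 1 call in 10 fits that left out 1 library, with values of -0.86 to -0.60. Atf4 ranged over 131 to 275 RPM in CD and 114 to 275 RPM in HFD, with a log2 fold change of 0.10 (SE 0.288). In HFD it was at 120 and 114 RPM in replicates 13 and 14 and at 227 to 275 RPM in replicates 3, 4 and 5. In RPM, Calr, Herpud1 and Xbp1 were also lower in replicates 13 and 14 than in the rest of that group. Hsp90b1 was higher in them, and the other members overlapped. The mitochondrial share of counts was 0.828 to 7.72% in 4-week CD and 3.57 to 5.25% in 4-week HFD, and its part in these values was not tested.

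The 16-week diets were compared to ask about established obesity. Serp1 and Calr had the largest negative values and Herpud1 the largest positive one. By edgeR 0 of 10 were called, as by DESeq2 and limma-voom, and 3 of all genes, or 0.0276%, were called by edgeR (0.00921% higher, 0.0184% lower), 9.72% by DESeq2 and 0.046% by limma-voom. At an unadjusted p under 0.05 were 2 of 10, Serp1 and Calr, beside 25.3% of all genes. The median log2 fold change of the 10 was -0.24, against -0.049 for all genes with TMM and -0.40 with library totals alone. Under library totals alone Serp1 (-1.11), Calr (-0.90) and Dnajb9 (-0.84) were called lower, with 15.2% of all genes called.

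Calr ran from 202 to 359.7 RPM in 16-week CD (median 316) and from 112 to 227 RPM in 16-week HFD (median 137). Below every CD library were 5 of 7 HFD libraries. Calr had a log2 fold change of -0.56 (SE 0.214, 95% interval -1.01 to -0.11, adjusted p = 0.125). Pdia4 ran from 617 to 2146 RPM in CD (median 1942) and from 697 to 1194 RPM in HFD (median 931), and the log2 fold change was -0.43 (SE 0.268, adjusted p = 0.303). Dnajb9 had medians of 66.0 RPM in CD and 36.8 RPM in HFD and a log2 fold change of -0.44 (SE 0.262, adjusted p = 0.287).

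Herpud1 was the member with the largest positive value at 16 weeks, 0.63 (SE 0.329, adjusted p = 0.229), with medians of 118 RPM in CD and 151 RPM in HFD. Hspa5 (-0.24), Hsp90b1 (0.32), Xbp1 (0.15), Atf4 (-0.24) and Ddit3 (0.12) had intervals that included 0. For Xbp1 and Ddit3 the sign turned under library totals alone. The CD replicates 1 and 2 had Atf4 at 142 and 145 RPM where the other 4 lay between 47.9 and 73.3 RPM, and Herpud1 at 71.8 and 69.5 RPM where the others lay between 111 and 181 RPM. With both left out, an alternative chosen after seeing the data, 0 of 10 members were called, beside 0.00909% of all genes, and the value of Atf4 was 0.11.

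The diet effects at 16 and at 4 weeks were then compared with each other in 1 fit over the 4 diet groups. Dnajb9 had a lower diet effect at 16 weeks than at 4 weeks, by 1.56 on the log2 scale (value -1.56, SE 0.434, adjusted p = 0.0442, edgeR over 12235 genes). It was the 1 member of 9 called, in a contrast with 3.66% of genes called (1.92% lower, 1.74% higher). The call was kept in 7 of 23 fits that left out 1 library, with values of -1.74 to -1.35, and was not kept without 16-week CD replicates 1 and 2 (-1.63, adjusted p = 0.0663). Pdia4 was at -1.30 (SE 0.469, adjusted p = 0.0952) and was called without 4-week CD replicate 11 or 16-week CD replicate 9. Ddit3 was at 0.91 (SE 0.392, adjusted p = 0.156). An unadjusted p under 0.05 (edgeR) was reached by 3 of 9, beside 23.4% of all genes. Of the 9, 7 had a value below 0 and 2 above, beside 46.1% of all genes above 0. The median of the 9 was -0.54, where the median of all genes was -0.086 with TMM and -0.39 with library totals alone.

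The low weight gainers were compared with the other mice on 16 weeks of HFD. Pdia4 was higher in the low weight gainers than in 16-week HFD, 1.83 times by medians. It was the 1 member of 10 called, in a comparison with 20.7% of 11258 genes called (10.8% higher, 9.93% lower), so the members' share was not above that of all genes. An unadjusted p under 0.05 (edgeR) was reached by 3 of 10, beside 36.3% of all genes. Pdia4 was at 1696, 1703 and 2287 RPM in the low weight gainers and at 697 to 1194 RPM in the 7 libraries of 16-week HFD (median 931). The groups did not overlap in RPM, as for 18.5% of genes (12.9% higher, 5.6% lower), or on the TMM scale, as for 20.5% (11.8% higher, 8.66% lower). The log2 fold change was 0.81 (SE 0.236, adjusted p = 0.0239, edgeR quasi-likelihood test). The call was lost when any of the 3 low weight gainers was left out, at values of 0.72 to 0.89 over all fits that left out 1 library. In RPM the low weight gainers overlapped 16-week CD, which ran from 617 to 2146 RPM (median 1942). The ratio of the low weight gainer median to that of 16-week CD was 0.877.

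Hspa5 was at 967, 955 and 1706 RPM in the low weight gainers and 429 to 979 RPM in 16-week HFD, with a log2 fold change of 0.55 (SE 0.250, adjusted p = 0.120). Calr (0.24), Xbp1 (0.28), Atf4 (0.067), Herpud1 (0.013), Ddit3 (-0.19), Dnajb9 (-0.23) and Hsp90b1 (-0.29) had intervals that included 0. This comparison and that of the 16-week diets share the 16-week HFD libraries. The mitochondrial share of counts did not overlap between these groups, at 0.337 to 0.614% in the low weight gainers and 0.786 to 1.53% in 16-week HFD, and its part in the values was not tested. The macrophage and neutrophil markers summed to 286 to 303 RPM in the low weight gainers, within the 86.0 to 590.4 RPM of 16-week HFD.

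Across the 34 libraries, after the mean of each group had been removed, Dnajb9 was the member most like Serp1, with a Spearman correlation of 0.728 (rank 22 of 9119 genes with a mean of at least 10 CPM on the TMM scale). Hspa5 followed at 0.517 (rank 280), Pdia4 at 0.404, Hsp90b1 at 0.377 and Xbp1 at 0.344. Herpud1 (0.132) and Calr (-0.062) showed little relation, and Ddit3 (-0.344) and Atf4 (-0.429, rank 8792) were opposite in sign. The 5 genes most like Serp1 were Arf4 (0.825), Aldh6a1 (0.796), Gnai3 (0.778), Rnf13 (0.771) and Ttc30b (0.769). These are descriptions over 34 libraries, whose values share library depth and cell composition. Among the members themselves, Hspa5 and Hsp90b1 had the highest correlation of the pairs, 0.764, and Hsp90b1 and Atf4 the lowest, -0.790. Calr, the other member with the ERSE, was at 0.268 with Hspa5 and 0.180 with Hsp90b1, below pairs such as Pdia4 and Dnajb9 (0.643).

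**Figure D4:**
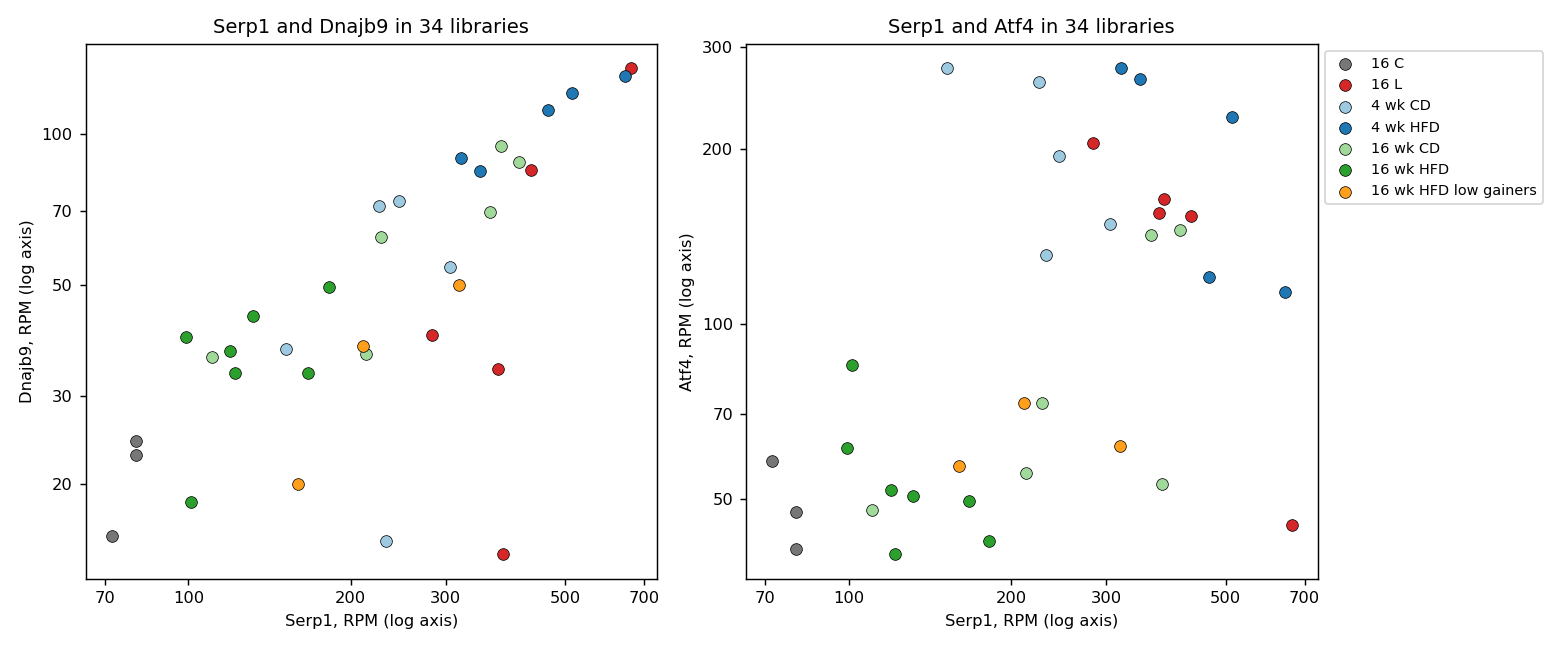
Each point is 1 library, with Serp1 in RPM on the horizontal log axis and Dnajb9 (left) or Atf4 (right) in RPM on the vertical log axis, coloured by group. The 2 libraries highest in Serp1, 16 L replicate 18 and 4-week HFD replicate 14, were also the 2 highest in Dnajb9, while 16 L replicate 21 and 4-week CD replicate 2 had Dnajb9 at 14.5 and 15.4 RPM with Serp1 at 384 and 233 RPM.

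A list of 52 other genes of the pathway was read beside the members. In 16 L, 49 were tested, and Os9 was called higher and 3 genes lower, where 4.06% of all genes were called higher and 4.5% lower. One more, Derl3, was called higher but is left out of that count. Derl3, of the derlin family in ER-associated degradation, had 1, 28 and 2 counts in 16 C (0.559, 2.12 and 0.53 RPM) and 17 to 233 counts in 16 L (15.4 to 37.3 RPM). It passed the filter on low counts through 16 L alone, with 0 of 3 saline libraries and 5 of 5 leptin libraries at or above 3.33 CPM, so it is given as counts without a fold change. Os9, a lectin that recognises misfolded glycoproteins, rose by 1.86 (SE 0.455, adjusted p = 0.0400, edgeR). Canx (calnexin), the membrane-bound homologue of calreticulin, fell by 3.19 (SE 0.684, adjusted p = 0.0294, edgeR). It was at 10763, 10748 and 9382 RPM in 16 C and between 1168 and 3612 RPM in 16 L. The 3612 RPM was replicate 18, and the other leptin libraries lay between 1168 and 1478 RPM. Without replicate 18 the fall was 4.00 (adjusted p = 6.14e-05, edgeR). In 4-week CD, Canx lay between 844 and 1897 RPM. Canx and Calr thus lay on opposite sides of 0, though Calr was not called (adjusted p = 0.113, edgeR). Canx was called in all 6 other settings and Calr in 3 of them. Derl2 fell by 1.95 (adjusted p = 0.0312) and Ero1l, the oxidase that feeds the disulphide isomerases, by 1.73 (adjusted p = 0.0379). The calls of Os9, Canx, Derl2 and Ero1l were each kept in 2 of 8 fits that left out 1 library. Without 16 L replicate 18, 19 of 49 listed genes were called with Derl3 included, beside 41.8% of all genes.

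In 4-week HFD, 49 were tested and 2 were called, beside 4.26% of all genes, so the share of the list was not above that of all genes. Ssr3, a subunit of the translocon-associated complex, rose by 1.35 (SE 0.347, adjusted p = 0.0406). It was at 428, 136, 336, 208 and 525 RPM in CD and at 593 to 1052 RPM in HFD, without overlap. Atf5, a target of the PERK and ATF4 arm, fell by 1.88 (SE 0.355, adjusted p = 0.0189), from 18.5 to 83.6 RPM in CD to 7.51 to 15.5 RPM in HFD. Of the translocon list 1 of 9 was called and of the chaperones 0 of 10, with all 10 chaperones above 0 on the TMM scale (median 0.27) and 8 of 10 under library totals alone (median 0.16). Of all genes 49.3% were above 0 on the TMM scale. The median of all genes was -0.0099 on that scale and -0.13 under library totals alone. Ssr3 and Atf5 kept their calls in 2 and 7 of 10 fits that left out 1 library.

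In 16-week HFD, 0 of 47 tested were called by edgeR, 6 by DESeq2, beside 9.72% of all genes, and 0 by limma-voom. At an unadjusted p under 0.05 were 14 of 47, beside 25.3% of all genes. All 6 sensors and processing genes had a value below 0, with a median of -0.88 on the TMM scale and of -1.32 under library totals alone. Of the 9 translocon genes 8 had a value above 0 with TMM (median 0.49) and 6 under library totals alone (median 0.21). Of all genes 46.6% had a value above 0 with TMM. The median of all genes was -0.049 with TMM and -0.40 under library totals alone. Without 16-week CD replicate 9, 12 of 47 listed genes were called, beside 20.5% of all genes. In the test of the diet effects against each other, Eif2ak3 (PERK) was the 1 gene of 50 called, beside 3.66% of all genes. Its diet effect was lower at 16 weeks by 1.74 (value -1.74, SE 0.435, adjusted p = 0.0295), and the call was kept in 14 of 23 fits that left out 1 library. Eif2ak3 was at 3.67 to 22.7 RPM in 4-week CD and 17.0 to 22.1 RPM in 4-week HFD, and at 9.75 to 33.6 RPM in 16-week CD and 6.37 to 11.0 RPM in 16-week HFD. Its 2 highest values of all were those of 16-week CD replicates 1 and 2, and without both the value was -1.56 (adjusted p = 0.0746).

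In the low weight gainers, 13 of 48 tested were called, 8 higher and 5 lower, against 20.7% of all genes. Those called higher were 2 of 6 disulphide isomerases and oxidases, 2 of 10 chaperones, 3 of 11 degradation genes and 1 of 6 targets of the PERK and ATF4 arm. Those called lower were 3 of 9 translocon genes, 1 of 11 degradation genes and 1 of 6 sensors and processing genes. The median log2 fold change was 0.64 for the disulphide isomerases and oxidases, -0.19 for the chaperones, -0.059 for the degradation genes and -0.25 for the translocon genes. Under library totals alone the medians were 0.80, -0.0094, 0.12 and -0.057 in that order, so that of the degradation genes turned above 0. The median of all genes was -0.030 with TMM and 0.14 under library totals alone. Txndc5, a disulphide isomerase, rose by 1.67 (SE 0.252, adjusted p = 0.00103), at 156, 156 and 318 RPM in the low weight gainers and 48.2 to 109.5 RPM in 16-week HFD. Edem2, a mannosidase of ER-associated degradation, rose by 1.19 (SE 0.189, adjusted p = 0.00120), and Pdia6, a further disulphide isomerase, by 1.01 (SE 0.235, adjusted p = 0.00769). The 3 translocon genes called lower were Sec61g at -1.26 (SE 0.313, adjusted p = 0.0110), Sec62 at -1.10 (SE 0.216, adjusted p = 0.00323) and Sec61b at -1.01 (SE 0.333, adjusted p = 0.0412). Txndc5, Edem2 and Sec62 were called in all 10 fits that left out 1 library, Pdia6 in 9, Sec61g in 8 and Sec61b in 6. For Sec61b adjusted p reached 0.153 in these fits. Of 6 other settings, Txndc5 was called in 6, and Edem2 and Sec62 in 5 each, with adjusted p up to 0.0656 and 0.0574. Pdia6 and Sec61g were also called in 5 of the 6, and Sec61b in 4. Without low weight gainer replicate 23, 4 of 48 listed genes were called, beside 5.19% of all genes. Atf3, Trib3 and Chac1, further targets of the PERK and ATF4 arm, were too low to be tested here.

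**Figure D5:**
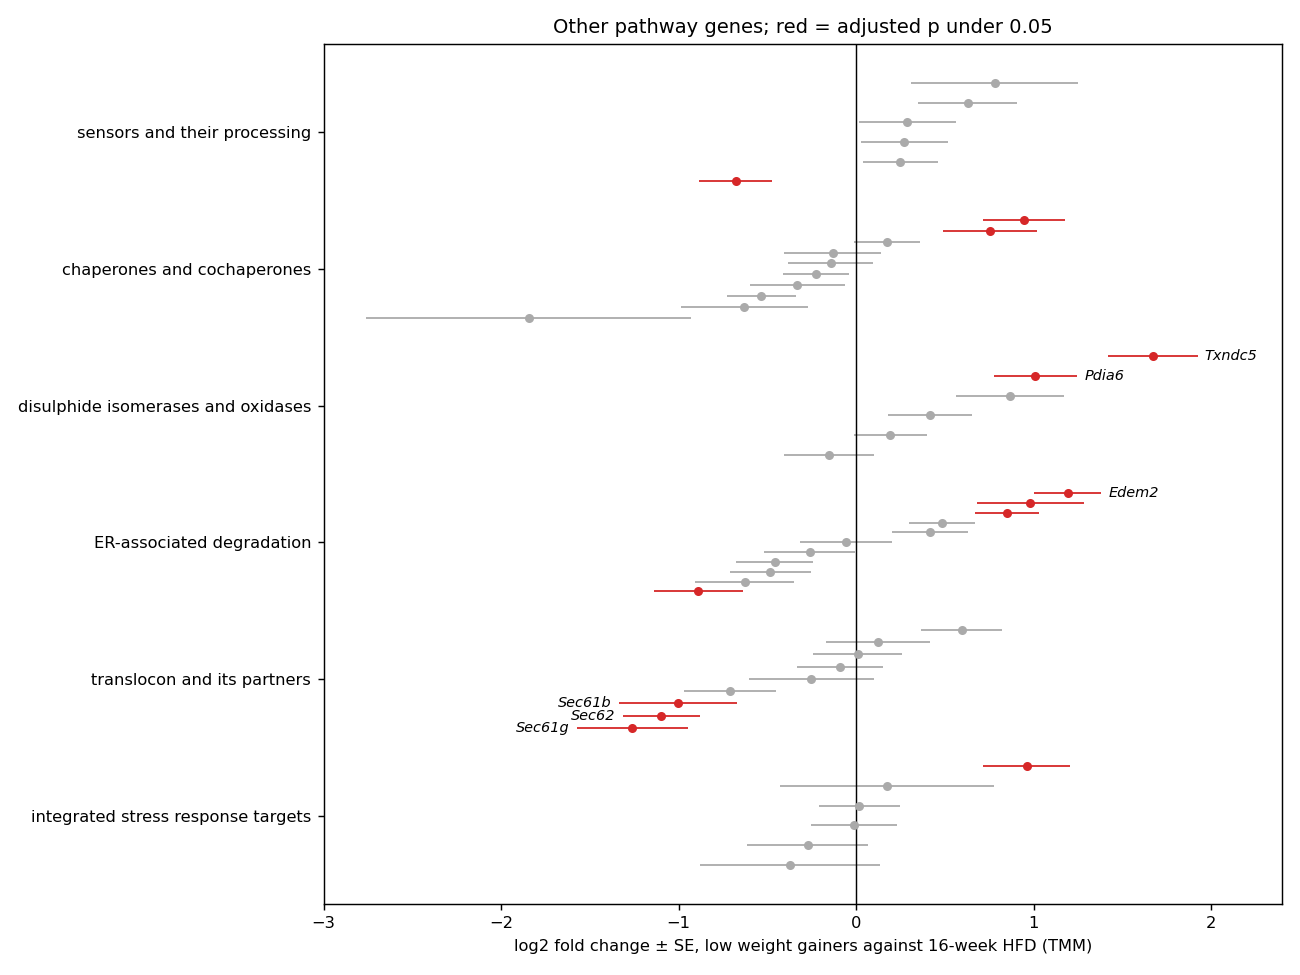
Each point is 1 of the 48 other pathway genes tested, with its log2 fold change between low weight gainers and 16-week HFD and its standard error, arranged by list, red where the adjusted p was under 0.05. The 3 named translocon genes lie between -1.26 and -1.01, and Txndc5, Edem2 and Pdia6 between 1.01 and 1.67.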

How the data were processed

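CC from superovulated females were sequenced after Smart-seq2 oligo-dT capture and Nextera XT library preparation, without molecular identifiers. The labels give each library as CC of 1 cumulus-oocyte complex, and the study's methods as about 50 CC per animal. The deposited values are raw whole-number counts per gene that the authors made after Trim Galore 0.4.2 and HISAT2 2.0.5 on GRCm38, per the submitters' processing notes. The counting program, its annotation and its strand setting are not given in the sources used here. All 34 columns of the count table were matched to samples by title, and 0 columns were left over. None of the 72 replicate pairs held identical values.

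RPM is the count scaled to the library total, and RPM per kb divides it by the GENCODE M21 exon length within the table's gene span. CPM on the TMM scale, with factors over all 34 libraries, was used to place libraries beside RPM. Each comparison was fitted with edgeR 4.0.16 (R 4.3.3) on its own groups, with filterByExpr, TMM factors, robust quasi-likelihood dispersion and two-sided tests, with Benjamini-Hochberg adjustment over all genes tested and a threshold of 0.05. All 10 members passed the filter in every comparison. The diet effect at 16 weeks against that at 4 weeks was a contrast over the 4 diet groups. Standard errors were derived from the log2 fold change and its F statistic, and intervals are 95%. Counts per library set the precision, and at least 16 counts were behind each member's value.

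Alternatives were DESeq2 1.42.0, limma-voom 3.58.1 with sample quality weights, RLE factors, library totals alone, no filter, all 34 libraries in 1 fit and leaving out each library in turn. One more, leaving out 16-week CD replicates 1 and 2 together, was chosen after seeing the data. The scripts were tested on simulated data. The named genes were the 10 members, the 3 largest rises and 3 largest falls past the threshold among the other pathway genes in each comparison, and the 5 genes most like Serp1. The members and the lists were chosen with earlier results of these data known. Promoter sequences came from RefSeq (GRCm38.p6).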

Additional observations from a re-analysis of the deposited data

Results flagged for a closer look

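In 50 sets of 1 member in 1 group of 5 to 7 libraries, 6 had a library far from the others by Dixon's ratio. For normal values chance alone marks about 1 set in 20. Whether RPM values are normal was not checked, and the sets of a group share their libraries. In 16 L, replicate 18 was the highest for Hspa5, at 2042 RPM with the next library at 801 RPM, and for Herpud1, at 435 RPM with the next at 39.8 RPM. It is the library with 29999 RPM of oviduct epithelium markers, and the part of that in the 2 values was not tested. In the same group, replicate 19 was the lowest for Calr, at 228 RPM with the next at 382 RPM. In 4-week HFD, replicate 14 was the highest for Hspa5, at 1129 RPM with the next at 815 RPM, and for Hsp90b1, at 2827 RPM with the next at 1779.6 RPM. In 4-week CD, replicate 2 was the highest for Calr, at 467 RPM with the next at 276 RPM.

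The diet effect differed between 16 and 4 weeks by the test of the difference itself for Dnajb9, at -1.56 on the log2 scale (adjusted p = 0.0442, edgeR), and for Eif2ak3, at -1.74 (adjusted p = 0.0295).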

How the results depend on the processing

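No paired analysis was possible because the groups compared directly hold different mice and share no replicate number. Numbers that recur between groups not compared directly, such as 1 and 2 in the control groups, mark no shared animal, litter or day in the labels. Since all 10 members passed the filter on low counts, the alternative with log2(RPM + 0.1) for members that failed it had nothing to apply to. Depth limits the lowest members most, since Dnajb9 had 16 counts in its shallowest library. The causes of the changes given next were not tested.

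The share of all genes called under each setting is given in parentheses. The number of members called in 16 L moved from 0 (8.56%) to 2 with DESeq2 (23.7%), 6 with limma-voom (64.4%), 2 with library totals alone (34.4%) and 3 with all 34 libraries in 1 fit (33.1%). That of the other pathway genes, Derl3 included, moved from 5 to 9, 34, 16 and 13 in the same order, and to 3 without a filter (2.66%). For 4-week HFD the members called moved from 1 (4.26%) to 2 with DESeq2 (11.2%), 7 with limma-voom (34.5%), 0 with library totals (5.65%) and 0 with all libraries (0.521%), and the other genes from 2 to 5 with DESeq2, 22 with limma-voom and 0 with all libraries. For 16-week HFD the members moved from 0 (0.0276%) to 3 with library totals (15.2%), and the other genes from 0 to 6 with DESeq2 (9.72%), 12 with library totals and 5 with all libraries (9.50%). For the low weight gainers the members moved from 1 (20.7%) to 2 with library totals (19.4%) and 0 with all libraries (3.68%), and the other genes from 13 to 2 with all libraries. For the difference of diet effects the members moved from 1 (3.66%) to 2 with DESeq2 (9.52%), 5 with limma-voom (19.2%), 2 with library totals (7.14%), 0 with all libraries (1.19%) and 0 without 16-week CD replicates 1 and 2 (0.725%). The other genes there moved from 1 to 6, 15 and 5 with DESeq2, limma-voom and library totals, 3 with RLE (4.94%), 2 without a filter (1.55%) and 0 without those replicates. Library totals alone turned the split of other genes called in 16 L from 2 higher and 3 lower to 14 higher and 2 lower, and in the low weight gainers from 8 and 5 to 11 and 3.

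Leaving out 1 library gave 0 to 4 members called in 16 L, 0 to 4 in 4-week HFD, 0 to 1 in 16-week HFD, 0 to 2 in low weight gainers and 0 to 2 for the difference of diet effects. The other genes called, with Derl3 included in 16 L, ranged over 0 to 19, 0 to 8, 0 to 12, 4 to 17 and 0 to 9. Over the same fits the share of all genes called ranged from 0.235 to 41.8%, 0.0674 to 14.4%, 0.00914 to 20.5%, 5.19 to 24.5% and 0.556 to 13.8%. The highest numbers came without 16 L replicate 18, 4-week CD replicate 11, 16-week CD replicate 9 and, in low weight gainers, 16-week HFD replicates 10 (members) and 6 (other genes).

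In 16 L the sign turned for Ddit3 with DESeq2 (-0.0064), limma-voom (-0.063) and RLE (-0.0093), for Hspa5 (-0.24) and Dnajb9 (-0.36) with limma-voom, and for Hsp90b1 with library totals (0.37). Library totals also turned Calr (-0.070) and Atf4 (-0.017) in 4-week HFD and Xbp1 (-0.18) and Ddit3 (-0.18) in 16-week HFD. Xbp1 was at -0.045 there with limma-voom. For the difference of diet effects Herpud1 was at -0.40 with limma-voom, -0.066 with library totals and -0.26 without 16-week CD replicates 1 and 2, which also gave Atf4 0.11 and Ddit3 -0.071 in 16-week HFD. With 1 library left out, values that crossed 0 were those of Ddit3 (-0.22 to 0.23) and Hspa5 (-0.27 to 0.75) in 16 L, Atf4 (-0.016 to 0.25) and Calr (-0.076 to 0.28) in 4-week HFD, Ddit3 (-0.026 to 0.29) in 16-week HFD, Atf4 (-0.10 to 0.19), Dnajb9 (-0.45 to 0.078) and Herpud1 (-0.23 to 0.20) in low weight gainers, and Herpud1 (-0.077 to 0.24) and Hsp90b1 (-0.44 to 0.12) for the difference. Of 300 member values with an adjusted p under the other settings 249 kept direction and call, as did 530 of 599 with 1 library left out.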
